A study of Mus musculus with 2 samples.

Results

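Which cells of the newborn mouse ureter held the RNA of basement membrane components was measured for 10 of the 32589 genes in the deposited count tables: the collagen IV chains Col4a1, Col4a2, Col4a5 and Col4a6, the nidogens Nid1 and Nid2, perlecan (Hspg2) and the laminin chains Lama5, Lamb1 and Lamc1. They were chosen by name, with earlier results of these data known. All 10 were present in both tables and had 20 or more UMIs over both libraries in urothelium-like, smooth-muscle-like, fibroblast-like and endothelium-like nuclei.

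Basement membranes are thin sheets of extracellular matrix under epithelia and around muscle fibres and vessels. They are built on a network of laminin, a trimer of an alpha, a beta and a gamma chain, and a network of collagen IV, a trimer whose chains come from Col4a1 and Col4a2 in most tissues and, in some epithelia and smooth muscle, from Col4a5 and Col4a6. Nidogens bind laminin and collagen IV, and perlecan, a heparan sulfate proteoglycan, binds both networks and growth factors. In the ureter the epithelium (urothelium) rests on a basement membrane that borders a fibrous layer, with smooth muscle outside it.

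The RNA was nuclear RNA of ureters at postnatal day 0. The DNp63cKO library was a pool of 14 mice that were Pax2-cre/+;DNp63fl/fl;R26mTmG/+. In these mice cre is driven by Pax2, both copies of the part of Trp63 that encodes the DNp63 isoform are flanked by lox sites, and the mTmG reporter switches its fluorescent protein once cre has acted. The control library was a pool of 13 mice whose genotype is labelled wt, and whether these mice carried the driver or the reporter is not stated in the labels. Pax2 marks the duct that gives rise to the epithelium of the ureter, and which classes had recombined was not analysed here. Each group is 1 library, so every difference given here lies between 2 libraries, has no replicate check and has no test. The labels used here do not give the sexes of the pooled mice, and Col4a5 and Col4a6 are X-linked.

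There were 5528 nuclei with 9859451 UMIs (molecules counted once by their identifier) in DNp63cKO, the median nucleus having 1298. In control there were 9062 nuclei with 16063644 UMIs, the median nucleus having 1124.5. The libraries shared 58 cell barcodes. Names of cell classes were rebuilt from marker genes, and the word "like" marks that. Of the nuclei kept, urothelium-like nuclei were 42.46% in DNp63cKO and 58.23% in control, smooth-muscle-like nuclei 27.82% in DNp63cKO and 22.86% in control, and fibroblast-like nuclei 18.7% in DNp63cKO and 10.25% in control. Trp63 had 140.1 CPM (UMIs of the gene scaled to the total UMIs of its class) in urothelium-like nuclei of DNp63cKO and 192 CPM in control ones. Because UMIs outside the deleted exons also count, this level does not check the deletion. A further 43 DNp63cKO and 222 control nuclei formed 1 cluster led by liver genes (Ahsg, Alb, Afp) and stayed unnamed, by a rule set after the leading genes were seen. At resolution 0.5 the liver-led cluster held only 7 DNp63cKO and 5 control nuclei. A cluster of 33 DNp63cKO and 202 control nuclei, sharing the leading genes Gm43305 and Gm42031, was then urothelium-like. Without doublet removal the liver-led cluster held 6 DNp63cKO and 5 control nuclei. Many of the unnamed nuclei may thus be urothelium-like.

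The 4 collagen IV genes lie as 2 head-to-head pairs. On mm10 with the GENCODE M21 annotation, Col4a1 (chr8:11198423-11312826, minus strand) and Col4a2 (chr8:11312805-11449287, plus strand) start 21 bases apart, and Col4a6 (chrX:141165403-141474076, minus strand) and Col4a5 (chrX:141475385-141689234, plus strand) lie back to back on the X chromosome. By the RefSeq starts used for the promoter windows below, with Col4a5 starting at 141475419, the starts of this second pair are 1343 bases apart. The promoter windows of the first pair, taken from RefSeq on GRCm38.p6 as 250 bases before to 50 after each gene's start, are shown because they share 78 bases, in capitals, which each strand reads in the opposite direction. Col4a1 is at chr8:11312777-11313076 on the minus strand and Col4a2 at chr8:11312555-11312854 on the plus strand, both written 5′ to 3′ along their own gene.
Col4a1: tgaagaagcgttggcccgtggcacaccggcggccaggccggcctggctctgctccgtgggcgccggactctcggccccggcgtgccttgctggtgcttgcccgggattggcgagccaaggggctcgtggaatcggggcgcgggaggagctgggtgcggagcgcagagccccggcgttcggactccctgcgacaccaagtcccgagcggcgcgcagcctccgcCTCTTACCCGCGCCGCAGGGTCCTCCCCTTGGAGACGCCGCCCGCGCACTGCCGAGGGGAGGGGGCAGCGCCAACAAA
Col4a2: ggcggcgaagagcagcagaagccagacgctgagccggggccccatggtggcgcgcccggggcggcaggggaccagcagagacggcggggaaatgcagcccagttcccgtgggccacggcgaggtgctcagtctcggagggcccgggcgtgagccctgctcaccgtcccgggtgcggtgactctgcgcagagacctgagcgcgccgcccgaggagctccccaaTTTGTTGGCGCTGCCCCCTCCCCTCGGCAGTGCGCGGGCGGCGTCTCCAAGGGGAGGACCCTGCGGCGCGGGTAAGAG
The shared 78 bases held 1 match to CCCTCCCC and none to CCAAT. The motif CCCTCCCC, searched on both strands as were the others, was present in 10.4% of 27025 promoters of the same length.

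The windows of the second pair do not overlap and are shown for that contrast, with matches to the GC box (GGGCGG on either strand) in capitals. Col4a5 is at chrX:141475169-141475468 on the plus strand and Col4a6 at chrX:141474027-141474326 on the minus strand.
Col4a5: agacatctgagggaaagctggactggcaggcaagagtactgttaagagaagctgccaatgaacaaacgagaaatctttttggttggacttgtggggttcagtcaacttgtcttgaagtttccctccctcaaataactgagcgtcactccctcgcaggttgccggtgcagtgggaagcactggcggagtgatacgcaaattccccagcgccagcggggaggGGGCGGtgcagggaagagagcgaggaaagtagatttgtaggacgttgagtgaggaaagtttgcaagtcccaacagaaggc
Col4a6: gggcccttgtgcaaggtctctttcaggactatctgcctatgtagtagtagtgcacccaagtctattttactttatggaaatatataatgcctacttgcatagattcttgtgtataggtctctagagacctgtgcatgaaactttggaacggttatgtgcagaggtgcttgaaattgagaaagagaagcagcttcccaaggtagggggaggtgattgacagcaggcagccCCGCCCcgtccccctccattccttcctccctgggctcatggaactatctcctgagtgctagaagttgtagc
The windows of Nid1 (chr13:13437352-13437651, plus strand) and Hspg2 (chr4:137468553-137468852, plus strand) are shown because these genes had the 2 highest ratios between the libraries in urothelium-like nuclei, with GC boxes again in capitals.
Nid1: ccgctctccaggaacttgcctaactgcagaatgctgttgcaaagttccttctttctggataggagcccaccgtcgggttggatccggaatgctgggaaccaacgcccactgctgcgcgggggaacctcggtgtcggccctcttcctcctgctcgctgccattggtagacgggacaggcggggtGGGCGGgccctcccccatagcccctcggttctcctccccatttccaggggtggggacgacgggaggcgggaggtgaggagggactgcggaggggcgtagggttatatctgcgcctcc
Hspg2: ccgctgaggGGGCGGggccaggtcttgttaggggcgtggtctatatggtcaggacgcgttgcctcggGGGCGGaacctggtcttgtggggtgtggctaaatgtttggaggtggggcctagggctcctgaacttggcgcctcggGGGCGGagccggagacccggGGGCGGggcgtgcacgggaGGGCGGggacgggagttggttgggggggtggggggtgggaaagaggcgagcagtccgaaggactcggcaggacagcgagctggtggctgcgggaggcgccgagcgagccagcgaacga
Hspg2 held 5 GC boxes and no CCAAT, and Nid1 held 1 GC box and 1 CCAAT. A GC box was present in 35.9% of all 27025 promoters, CCAAT in 37.9% and TATAAA in 14.2%, and none of these 6 windows held TATAAA. A base could count for more than 1 motif, and a match is a description of letters and not of a bound site. Windows were matched for 8 of the 10 genes, all but Nid2 and Lamc1.

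The gene spans of the others on mm10 are Nid1 at chr13:13437551-13512269 and Nid2 at chr14:19751265-19811787 (both plus strand), Hspg2 at chr4:137468769-137570630 (plus), Lama5 at chr2:180176373-180225859 (minus), Lamb1 at chr12:31265234-31329644 (plus) and Lamc1 at chr1:153218922-153332786 (minus). No source used here states whether introns were counted or strand was used. Col4a1, Col4a2 and Col4a6 each overlap 2 genes on the opposite strand, and Col4a5, Nid1 (Gm48682), Nid2 (Rtraf) and Lamc1 each overlap 1, so without strand the reads of these 7 members cannot be told apart from those of such neighbours. Hspg2, Lama5 and Lamb1 overlap none. Col4a1 and Col4a2 overlap only at their starts.

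The members divided into those highest in urothelium-like nuclei and those highest in the surrounding tissue. Levels were compared over the 5 classes with 50 or more nuclei in both libraries. Macrophage-, glia-, neuron- and nephron-like nuclei and the unnamed cluster were therefore not among them. Col4a5, Col4a6 and Lama5, 3 of 10 members, had their highest level of these 5 cell classes in urothelium-like nuclei of both libraries. This held for 18.5% of all genes with 100 or more UMIs in each library. Nid1 was highest in fibroblast-like nuclei of both libraries, as were 9.2% of all genes, and Hspg2 in endothelium-like nuclei, as were 8.26%, while the class in first place differed between libraries for Col4a1, Col4a2, Nid2, Lamb1 and Lamc1. In control the Nid1 intervals of fibroblast-like (267 CPM, 234 to 303) and endothelium-like nuclei (260 CPM, 215 to 311) overlapped. The levels by class show the split, and counting intervals are exact Poisson intervals at 95% that cover counting error only.

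**Figure D1:**
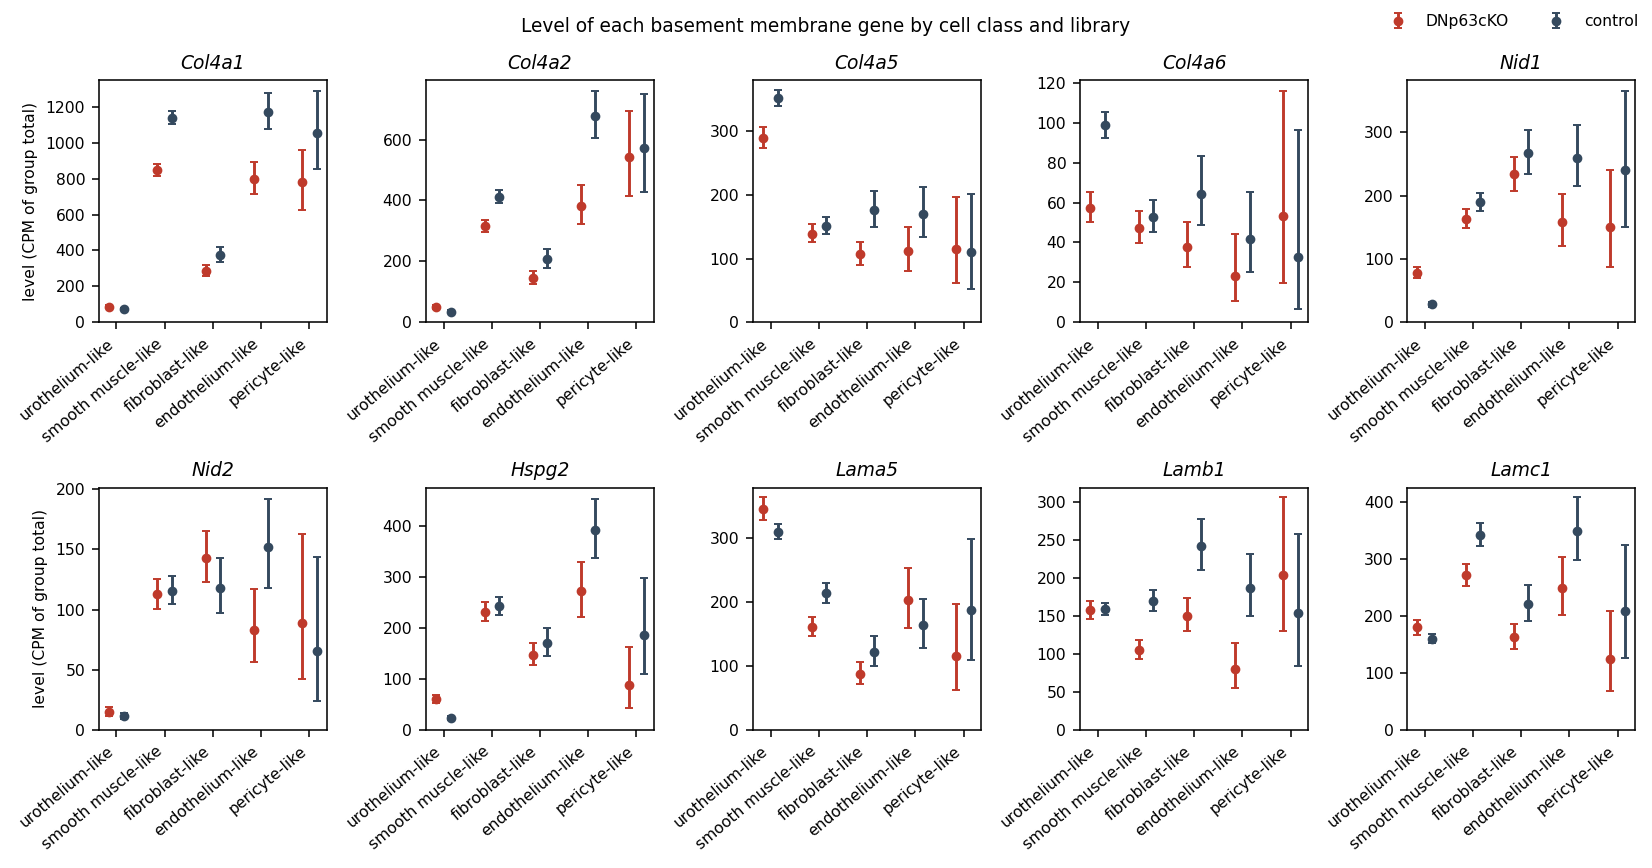
Level of each of the 10 genes (CPM of the class total, linear axis from 0) in 5 cell classes, DNp63cKO in red and control in dark blue; points are 1 library each and bars are exact 95% Poisson intervals. Col4a1 and Col4a2 were lowest in urothelium-like nuclei (87.0 and 48.8 CPM in DNp63cKO), whereas Col4a5 and Lama5 were highest there (289 and 345 CPM in DNp63cKO).

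Col4a1, a chain of the collagen IV found in nearly all basement membranes, had 87.0 CPM in urothelium-like nuclei of DNp63cKO and 72.3 CPM in control. In smooth-muscle-like nuclei it had 847 CPM in DNp63cKO and 1138 CPM in control, in endothelium-like nuclei 800.2 CPM in DNp63cKO and 1171 CPM in control, and in pericyte-like nuclei 781 CPM in DNp63cKO and 1054 CPM in control. Fibroblast-like nuclei stood between, at 288 CPM in DNp63cKO against 376 CPM in control. The urothelium-like level was the lowest of the 5 classes in both libraries, and of all Col4a1 UMIs 66.4% in DNp63cKO and 69.6% in control came from smooth-muscle-like nuclei. Smooth muscle and endothelium did not differ beyond their counting intervals in either library.

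Col4a2, its partner chain, followed the same order at the low end. It had 48.8 CPM in urothelium-like nuclei of DNp63cKO and 35.1 CPM in control, against 316 CPM in DNp63cKO and 411 CPM in control for smooth-muscle-like nuclei. Endothelium-like nuclei had 383 CPM in DNp63cKO and 678 CPM in control and pericyte-like nuclei 541 CPM in DNp63cKO and 571 CPM in control of Col4a2. Across 10 profiles, 5 classes in each library, Col4a2 was the gene most like Col4a1 of 8381 compared and Col4a1 the gene most like Col4a2 (Pearson r of log2(CPM + 5) 0.981), a description only, since the profiles of a library share its depth and its free RNA.

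The number of Col4a1 UMIs per Col4a2 UMI, which can be compared between classes but does not give a ratio of molecules, was 1.78 in DNp63cKO urothelium-like nuclei (upper 95% bound 2.13) and 2.06 in control (1.80 to 2.37). In DNp63cKO it was 2.68 in smooth-muscle-like, 1.99 in fibroblast-like and 2.09 in endothelium-like nuclei. In control it was 2.77 in smooth-muscle-like, 1.82 in fibroblast-like and 1.73 in endothelium-like nuclei. The smooth-muscle-like intervals (2.48 to 2.90 in DNp63cKO and 2.60 to 2.94 in control) lay above those of the other 3 classes in control and above urothelium and fibroblast in DNp63cKO.

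Col4a5 and Col4a6, chains of the collagen IV of epithelia and smooth muscle, had the opposite order. Col4a5 had 289 CPM in urothelium-like nuclei of DNp63cKO and 352 CPM in control, against 139 CPM in DNp63cKO and 151 CPM in control for smooth-muscle-like nuclei and 107 CPM in DNp63cKO and 177 CPM in control for fibroblast-like nuclei. Urothelium-like nuclei held 66.1% of Col4a5 UMIs in DNp63cKO and 78.5% in control, where they held 46.2% in DNp63cKO and 63.5% in control of all UMIs. None of the intervals of the other 4 classes overlapped the urothelium-like interval for Col4a5 in either library.

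Col4a6 had 57.4 CPM in urothelium-like nuclei of DNp63cKO and 98.7 CPM in control. It had 47.2 CPM in DNp63cKO and 53.0 CPM in control for smooth-muscle-like nuclei, 37.9 CPM in DNp63cKO and 64.2 CPM in control for fibroblast-like nuclei, and 23.3 CPM in DNp63cKO and 41.8 CPM in control for endothelium-like nuclei (9 UMIs in DNp63cKO and 19 in control). In control the urothelium-like interval (92.3 to 105 CPM) stood apart from smooth muscle, fibroblast and endothelium, but in DNp63cKO it (50.3 to 65.1 CPM) overlapped that of smooth muscle (39.5 to 56.0 CPM). It also overlapped that of pericyte-like nuclei in each library, at 53.2 CPM in DNp63cKO (19.5 to 116, 6 UMIs) and 32.9 CPM in control (6.79 to 96.2, 3 UMIs). Col4a6 was the gene ranked 390 in likeness to Col4a5 over the 10 profiles (r 0.793), and Col4a5 was ranked 54 in likeness to Col4a6.

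**Figure D2:**
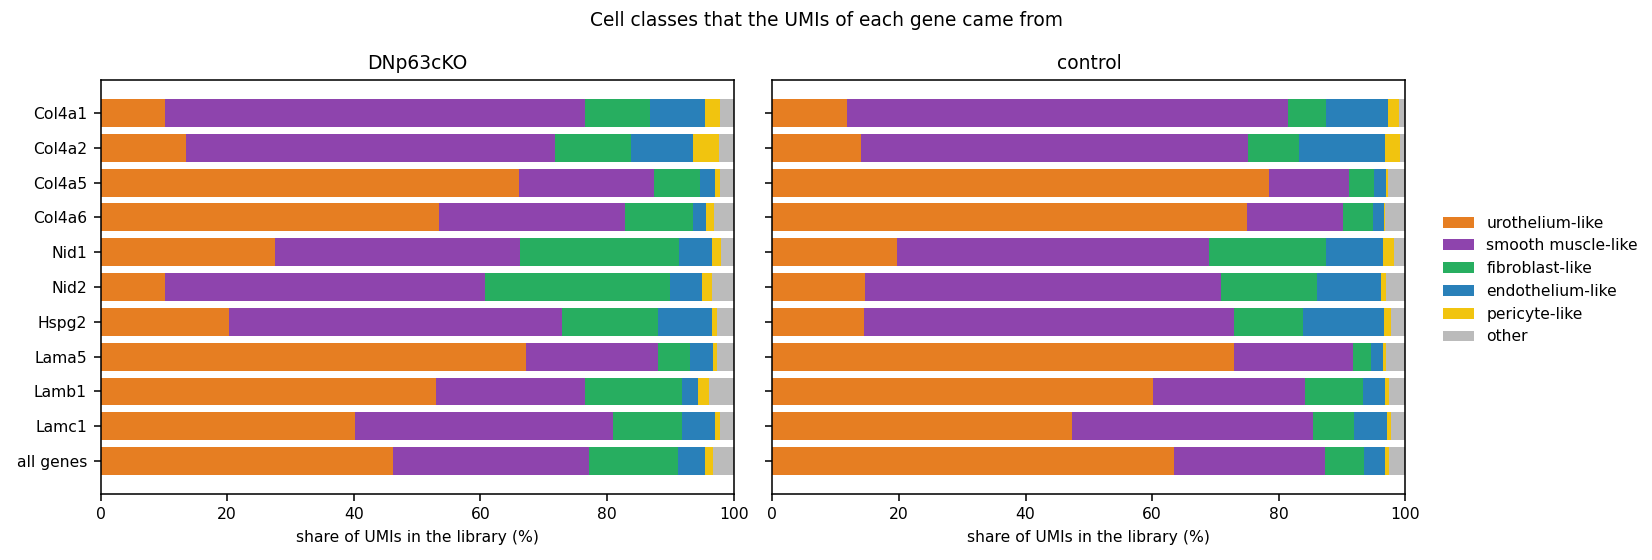
Share of each gene's UMIs (%, stacked to 100) that came from each cell class, DNp63cKO left and control right; the bottom bar is the share of all UMIs. Urothelium-like nuclei held 67.1% of Lama5 and 66.1% of Col4a5 UMIs in DNp63cKO but 10.2% of Col4a1 UMIs, against 46.2% of all UMIs.

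Among the linkers, Nid1 had 77.7 CPM in urothelium-like nuclei of DNp63cKO and 28.3 CPM in control, against 234 CPM in DNp63cKO and 267 CPM in control for fibroblast-like nuclei and 164 CPM in DNp63cKO and 189.6 CPM in control for smooth-muscle-like nuclei. Nid2 had 15.1 CPM in DNp63cKO and 11.2 CPM in control for urothelium-like nuclei, 143 CPM in DNp63cKO and 118 CPM in control for fibroblast-like nuclei and 113 CPM in DNp63cKO and 116 CPM in control for smooth-muscle-like nuclei. Hspg2 had 59.8 CPM in DNp63cKO and 22.6 CPM in control for urothelium-like nuclei, 272 CPM in DNp63cKO and 392 CPM in control for endothelium-like nuclei and 232 CPM in DNp63cKO and 243 CPM in control for smooth-muscle-like nuclei. For all 3 linkers the urothelium-like interval lay below those of smooth muscle, fibroblast and endothelium in both libraries.

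Of the laminin chains, Lama5, the alpha chain of laminins under many epithelia, had 345 CPM in urothelium-like nuclei of DNp63cKO and 309 CPM in control, against 160.2 CPM in DNp63cKO and 213 CPM in control for smooth-muscle-like nuclei and 87.6 CPM in DNp63cKO and 122 CPM in control for fibroblast-like nuclei. Lamb1, a beta chain, had 157 CPM in DNp63cKO and 159 CPM in control for urothelium-like nuclei, 105 CPM in DNp63cKO and 170.0 CPM in control for smooth-muscle-like nuclei and 150.0 CPM in DNp63cKO and 242 CPM in control for fibroblast-like nuclei. Lamc1, the gamma chain of most laminin trimers, had 180.0 CPM in DNp63cKO and 160.0 CPM in control for urothelium-like nuclei and 272 CPM in DNp63cKO and 343 CPM in control for smooth-muscle-like nuclei. Lama5 was highest in urothelium-like nuclei, while Lamb1 and Lamc1 were spread over the classes.

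The UMI ratios of the laminin chains differed between classes. UMIs of Lama5 per Lamc1 UMI were 1.92 in DNp63cKO urothelium-like nuclei (1.75 to 2.10) and 1.93 in control (1.81 to 2.06), against 0.589 in DNp63cKO and 0.621 in control for smooth-muscle-like nuclei. UMIs of Lamc1 per Lamb1 UMI were 1.14 in DNp63cKO and 1.01 in control for urothelium-like nuclei, and 2.60 in DNp63cKO and 2.02 in control for smooth-muscle-like nuclei. Over the 10 profiles Lamc1 was ranked 6012 of 8381 genes in likeness to Lamb1 (r -0.194).

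Past 1.5-fold in both libraries, urothelium-like over smooth-muscle-like nuclei, 1 of 10 members was higher and 6 were lower, where all genes had 19.9% higher and 19.8% lower. Over fibroblast-like nuclei 3 members were higher and 5 lower (background 21.4% and 19.0%), and over endothelium-like nuclei 3 and 5 (15.9% and 15.3%). Over pericyte-like nuclei, with 87 DNp63cKO and 75 control nuclei, 2 were higher and 4 lower (20.1% and 14.3%). The 3 members that exceeded fibroblast-like nuclei were Col4a5, Col4a6 and Lama5.

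RNA of other classes was counted in every class. The uroplakins Upk1a, Upk1b, Upk2 and Upk3a, made by urothelium, summed in smooth-muscle-like nuclei to 21.4% of their urothelium-like level in DNp63cKO and 18.1% in control. Conversely, 14 smooth muscle markers summed in urothelium-like nuclei to 9.04% of their own-class level in DNp63cKO and 6.46% in control, with none of the 14 at 0. Col4a1 in urothelium-like nuclei was at 10.3% in DNp63cKO and 6.35% in control of its smooth-muscle-like level, Col4a2 at 15.4% in DNp63cKO and 8.52% in control, Nid2 at 13.4% in DNp63cKO and 9.73% in control, and Hspg2 at 25.8% in DNp63cKO and 9.31% in control. In control, urothelium-like Col4a1 was at about the percentage of the smooth muscle markers. Set against fibroblast-like nuclei, Col4a1 was at 30.2% in DNp63cKO and 19.2% in control, where the fibroblast markers were at 5.62% in DNp63cKO and 2.86% in control. Set against endothelium-like nuclei it was at 10.9% in DNp63cKO and 6.18% in control, where the endothelium markers were at 1.83% in DNp63cKO and 1.01% in control. The part of carried-over RNA in these levels was not tested. Lamc1 at 66.2% in DNp63cKO and 46.6% in control and Nid1 at 47.4% in DNp63cKO and 14.9% in control of the smooth-muscle-like level were further above the smooth muscle markers. In the other direction, Col4a5 in smooth-muscle-like nuclei was at 48.1% in DNp63cKO and 43.0% in control of its urothelium-like level, Lama5 at 46.4% in DNp63cKO and 68.9% in control and Col4a6 at 82.3% in DNp63cKO and 53.7% in control, all above the uroplakins. Lama5 in fibroblast-like nuclei of DNp63cKO, at 25.4%, was close to the uroplakins at 23.4%.

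Within the urothelium, nuclei were grouped by layer: basal cells touch the basement membrane, superficial cells line the lumen, and a cycling cluster is led by mitosis genes. Different clusters held the superficial-like layer of the 2 libraries, cluster 8 with 1026 DNp63cKO and 151 control nuclei, cluster 11 with 57 DNp63cKO and 796 control nuclei, and cluster 13 with 177 DNp63cKO and 771 control nuclei. Basal-like cluster 5 held 166 DNp63cKO and 1239 control nuclei and cluster 6 held 433 DNp63cKO and 1243 control nuclei. The cycling cluster 7 held 337 DNp63cKO and 676 control nuclei. Genes that name the basal-like layer themselves differed between the libraries: in basal-like nuclei Krt14 had 373 CPM in DNp63cKO and 46.7 CPM in control, and Itga6 had 310.4 CPM in DNp63cKO and 592 CPM in control. A cluster that is mostly of 1 library may be that library and not a cell type, so values by numbered cluster stand beside those by layer.

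**Figure D3:**
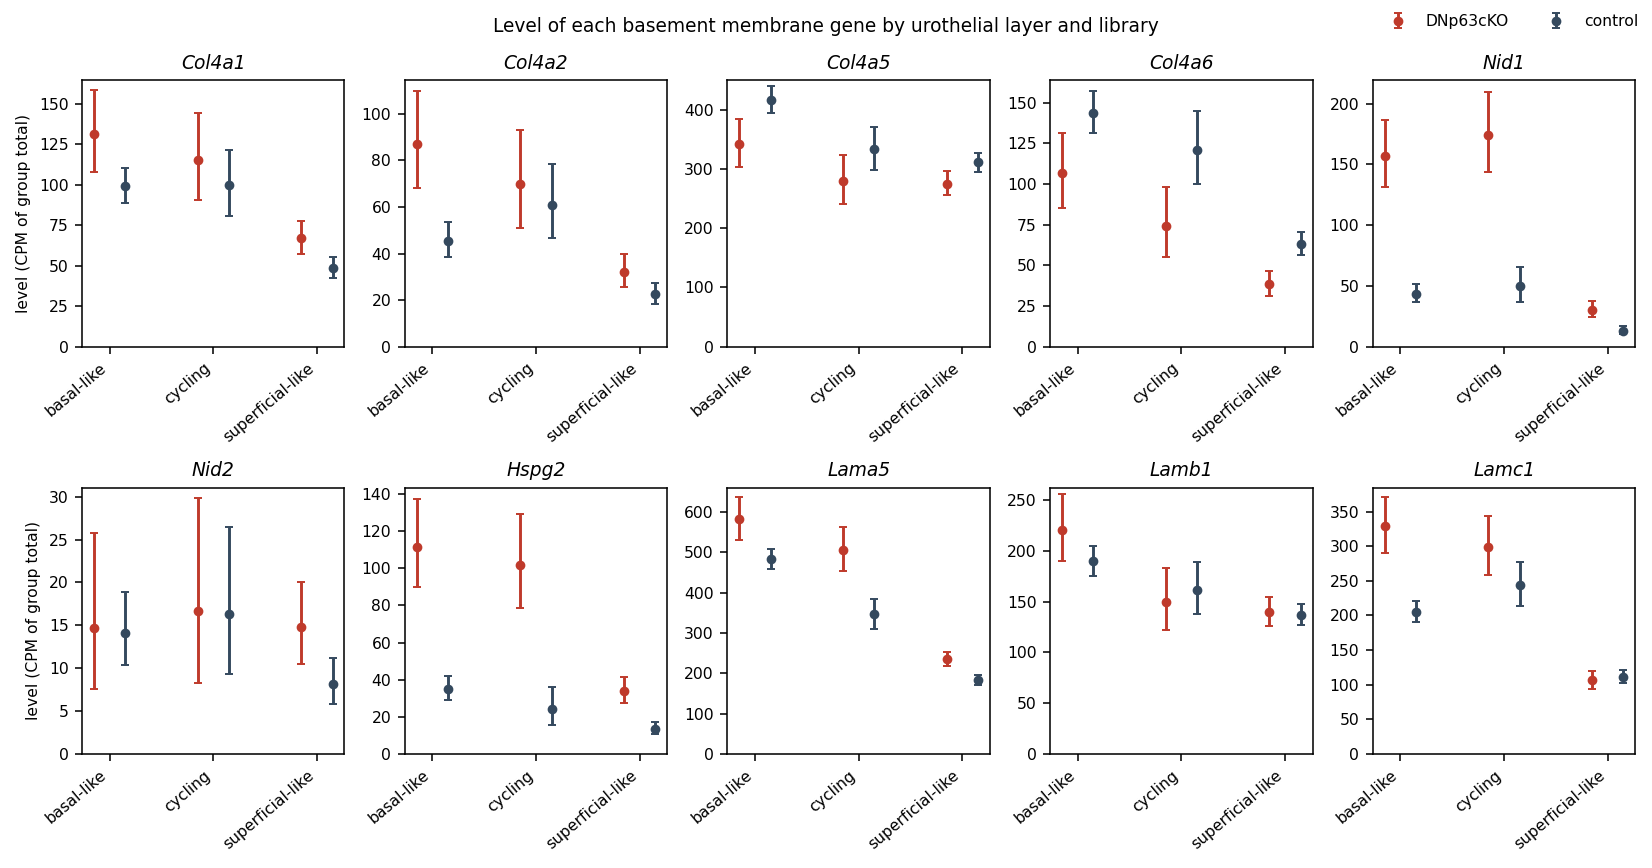
Level of each of the 10 genes (CPM of the layer total, linear axis from 0) in basal-like, cycling and superficial-like nuclei, DNp63cKO in red and control in dark blue, 1 library per point with exact 95% Poisson intervals. Nid1 stood at 157 CPM in basal-like nuclei of DNp63cKO and 43.7 CPM in control, and 7 of the 10 genes were lower in superficial-like than in basal-like nuclei past 1.5-fold in both libraries.

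Most members were higher in the layer that touches the basement membrane. Past 1.5-fold in both libraries, basal-like over superficial-like nuclei, 7 of 10 were higher and 0 lower, where all genes had 12.6% higher and 6.79% lower. The 7 were Col4a1, Col4a2, Col4a6, Nid1, Hspg2, Lama5 and Lamc1. Leaving out cluster 13 kept the count at 7. The list that named the basal-like layer held none of the 10 members. It did hold the basement membrane genes Itga6, Itgb4, Lamb3 and Bcam, so the layer name is not independent of basement membrane genes. Marker lists of most other classes also summed higher in basal-like than in superficial-like nuclei. The fibroblast list was at 1526 against 1335 CPM in DNp63cKO and 1193 against 721 CPM in control. The smooth muscle list was at 1612 against 1446 CPM in DNp63cKO and 1308 against 944 CPM in control. The pericyte list went the other way in control, at 482 against 690 CPM. The part of such RNA in the 7 was not tested.

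Lama5 had 582 CPM in basal-like nuclei of DNp63cKO and 235 CPM in its superficial-like nuclei, a log2 difference of 1.31 (1.13 to 1.48). In control it had 482 CPM in basal-like and 183 CPM in superficial-like nuclei, a difference of 1.40 (1.27 to 1.52). In DNp63cKO Lamc1 had 329 CPM in basal-like and 106 CPM in superficial-like nuclei (1.63, 1.38 to 1.87), and in control it had 205 CPM in basal-like and 112 CPM in superficial-like nuclei (0.88, 0.71 to 1.05). The intervals of the basal difference of Lamc1 did not overlap between the libraries, and those of Lama5 did.

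Nid1 had 157 CPM in basal-like and 30.3 CPM in superficial-like nuclei of DNp63cKO (log2 2.37, 1.96 to 2.79), and 43.7 CPM in basal-like and 13.3 CPM in superficial-like nuclei of control (1.72, 1.28 to 2.17). Hspg2 had 112 CPM in basal-like and 34.0 CPM in superficial-like nuclei of DNp63cKO (1.72, 1.28 to 2.15) and 35.0 CPM in basal-like and 13.7 CPM in superficial-like nuclei of control (1.36, 0.90 to 1.82). Col4a6 had 107 CPM in basal-like and 38.4 CPM in superficial-like nuclei of DNp63cKO (1.48, 1.05 to 1.90) and 144 CPM in basal-like and 63.2 CPM in superficial-like nuclei of control (1.19, 0.98 to 1.40). Cycling nuclei were near the basal-like level of Nid1, at 174 CPM in DNp63cKO against 49.8 CPM in control.

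Col4a1 had 131 CPM in basal-like and 66.8 CPM in superficial-like nuclei of DNp63cKO, and 99.0 CPM in basal-like and 48.4 CPM in superficial-like nuclei of control. Col4a2 had 87.1 CPM in basal-like and 32.1 CPM in superficial-like nuclei of DNp63cKO and 45.5 CPM in basal-like and 22.5 CPM in superficial-like nuclei of control. In superficial-like nuclei Col4a1 was at 7.89% of its smooth-muscle-like level in DNp63cKO and 4.25% in control, below the smooth muscle markers at 8.66% in DNp63cKO and 5.43% in control. It was at 23.2% of its fibroblast-like level in DNp63cKO and 12.9% in control, above the fibroblast markers at 5.40% in DNp63cKO and 2.18% in control. In basal-like nuclei Col4a1 was at 15.5% of its smooth-muscle-like level in DNp63cKO and 8.70% in control. The smooth muscle markers there were at 9.65% in DNp63cKO and 7.53% in control. Basal-like Col4a1 was at 45.6% of its fibroblast-like level in DNp63cKO and 26.3% in control, with the fibroblast markers at 6.17% in DNp63cKO and 3.61% in control.

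The members that did not pass in both libraries were Col4a5, Lamb1 and Nid2. Col4a5 had 342 CPM in basal-like and 275 CPM in superficial-like nuclei of DNp63cKO (log2 0.31, 0.11 to 0.51) and 417 CPM in basal-like and 311 CPM in superficial-like nuclei of control (0.42, 0.32 to 0.53). UMIs of Col4a5 per Col4a6 UMI were 3.21 in basal-like (2.51 to 4.13) and 7.17 in superficial-like nuclei (5.84 to 8.89) of DNp63cKO, and 2.90 in basal-like (2.61 to 3.23) and 4.93 in superficial-like nuclei (4.35 to 5.60) of control. Lamb1 had 221 CPM in basal-like and 139.9 CPM in superficial-like nuclei of DNp63cKO and 189.7 CPM in basal-like and 137 CPM in superficial-like nuclei of control. Nid2 had 14.7 CPM in basal-like and 14.8 CPM in superficial-like nuclei of DNp63cKO on 12 and 40 UMIs, and 14.1 CPM in basal-like and 8.21 CPM in superficial-like nuclei of control on 46 and 39 UMIs.

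Between the libraries, Nid1 and Hspg2 were higher in DNp63cKO urothelium-like nuclei than in control ones, and Col4a6 was lower. Past 1.5-fold, 2 of 10 members were higher and 1 lower, where all genes with 20 or more UMIs had 10.6% higher and 7.38% lower. The other 7 lay within 1.5-fold, and the median log2 ratio of the 10 was 0.22 beside 0.01 over 14819 genes. The layers were filled differently: 599 DNp63cKO and 2482 control nuclei were basal-like, and 1260 DNp63cKO and 1718 control nuclei superficial-like. The part of this layer mix in the class ratios was not tested.

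**Figure D4:**
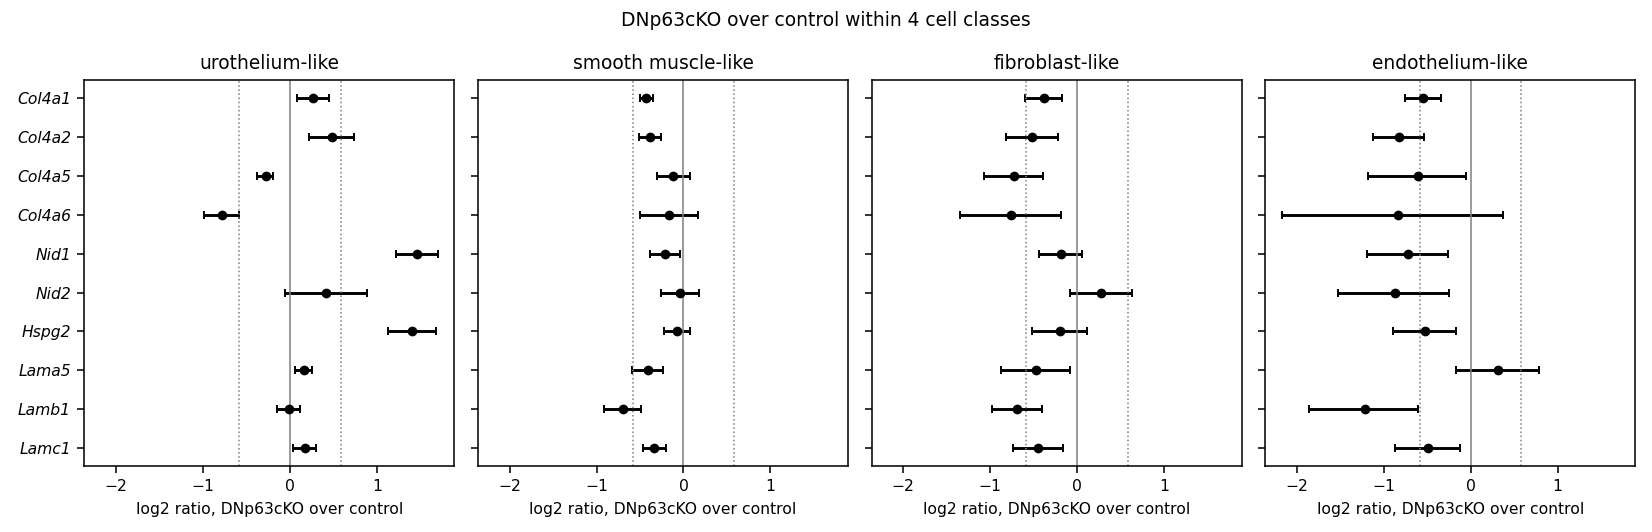
Log2 ratio of CPM, DNp63cKO over control, for each of the 10 genes in 4 cell classes, with exact 95% conditional binomial intervals (counting error only); dotted lines mark 1.5-fold. Nid1 at 1.46 and Hspg2 at 1.40 stood apart in urothelium-like nuclei, and 6 genes were past the lower line in endothelium-like nuclei.

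Nid1 had 325 UMIs in DNp63cKO urothelium-like nuclei and 254 in control, with 77.7 CPM in DNp63cKO against 28.3 CPM in control, a log2 ratio of 1.46 (1.22 to 1.70). After thinning each nucleus to 700 UMIs, 5.51% of DNp63cKO urothelium-like nuclei (4.56 to 6.59%, exact Clopper-Pearson) and 2.20% of control ones (lower bound 1.77%) had a Nid1 UMI. Unthinned shares were 11.7% in DNp63cKO and 4.86% in control, at median depths of 1480 UMIs in DNp63cKO and 1244 UMIs in control. The thinned shares left out 162 shallower DNp63cKO and 837 shallower control nuclei.

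By cluster, the log2 ratio of Nid1 was 1.88 in cluster 5 and 1.79 in cluster 6, both basal-like, and 1.81 in cycling cluster 7. In the superficial-like clusters 8, 11 and 13 it was 0.50, 0.89 and 1.02, and each of these 3 intervals held 0, with 71 DNp63cKO and 7 control UMIs in cluster 8, 4 DNp63cKO and 37 control UMIs in cluster 11, and 7 DNp63cKO and 19 control UMIs in cluster 13. Pooled over the superficial-like clusters, which the libraries fill differently, the ratio was 1.19 (0.70 to 1.69). The thinned share of basal-like nuclei with a Nid1 UMI was 9.88% in DNp63cKO and 2.84% in control, unthinned 17.0% in DNp63cKO and 5.28% in control, at median depths of 1130 UMIs in DNp63cKO and 997 UMIs in control.

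Hspg2 had 250 UMIs in DNp63cKO urothelium-like nuclei and 203 in control, with 59.8 CPM in DNp63cKO against 22.6 CPM in control, a log2 ratio of 1.40 (1.13 to 1.68). The thinned share of nuclei was 4.08% in DNp63cKO and 1.83% in control, and the unthinned share 9.65% in DNp63cKO and 3.90% in control. Its ratio was 1.65 in cluster 5, 1.75 in cluster 6 and 2.06 in cluster 7 (101.6 CPM in DNp63cKO and 24.4 CPM in control), and 0.21, 0.55 and 0.72 in the superficial-like clusters 8, 11 and 13. As for Nid1, the intervals of the 3 superficial-like clusters held 0.

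Markers of most other cell types also summed higher in DNp63cKO than in control urothelium-like nuclei. The 14 fibroblast markers were at 1389 CPM in DNp63cKO against 945 CPM in control (log2 0.56), the 14 smooth muscle markers at 1509.9 CPM in DNp63cKO against 1122.5 CPM in control (0.43) and the 13 endothelium markers at 113 CPM in DNp63cKO against 72.6 CPM in control (0.63), with none of these at 0. The 11 macrophage markers were at 39.9 CPM in DNp63cKO against 24.1 CPM in control (0.73), and the 8 pericyte markers at 244 CPM in DNp63cKO against 578 CPM in control (-1.24), with 1 of them at 0 in DNp63cKO. Each of these log2 ratios was smaller than those of Nid1 and Hspg2 in urothelium-like nuclei. By layer the fibroblast list was at 0.36 in basal-like, 0.26 in cycling and 0.89 in superficial-like nuclei, and the endothelium list at 0.72, 0.33 and 0.77. In superficial-like nuclei these came near the ratios of Nid1 (1.19) and Hspg2 (1.31), and in basal-like nuclei Nid1 was at 1.85 and Hspg2 at 1.67. The part of these markers' RNA in the 2 ratios was not tested. After subtraction of a free RNA profile the urothelial ratio of Nid1 was 2.12 and that of Hspg2 2.68. The profile was the library's own summed counts, taken at 19.6% in DNp63cKO and 17.5% in control. In control, library-wide Hspg2 was 98.6 CPM and Nid1 91.2 CPM, beside urothelium-like levels of 22.6 CPM and 28.3 CPM. Most of each control level was thus removed, and these ratios rest on the small part that remained.

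Col4a6 had 240 UMIs in DNp63cKO urothelium-like nuclei and 887 in control, with 57.4 CPM in DNp63cKO against 98.7 CPM in control, a log2 ratio of -0.78 (-0.99 to -0.58). The thinned share of nuclei with a UMI was 3.83% in DNp63cKO (3.04 to 4.76%) and 7.38% in control (6.59 to 8.23%), and the unthinned share 9.34% in DNp63cKO and 14.4% in control. Its ratio was below 0 in each of the 6 urothelium-like clusters, at -0.29, -0.46, -0.70, -0.71, -2.48 and -0.68 in clusters 5, 6, 7, 8, 11 and 13, the value in cluster 11 resting on 2 DNp63cKO UMIs. Its intervals held 0 in clusters 5, 6, 8 and 13. By layer its ratio was -0.43 (-0.78 to -0.10) in basal-like nuclei, within 1.5-fold, -0.70 in cycling and -0.72 in superficial-like nuclei. Without cluster 8 the pooled ratio was -0.36 and no longer past 1.5-fold. Leaving out that cluster removed 1026 DNp63cKO and 151 control nuclei and so also changed the layer mix. The pooled ratio was -0.28 in nuclei with Y-linked and no Xist UMIs (332 DNp63cKO and 547 control nuclei).

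**Figure D5:**
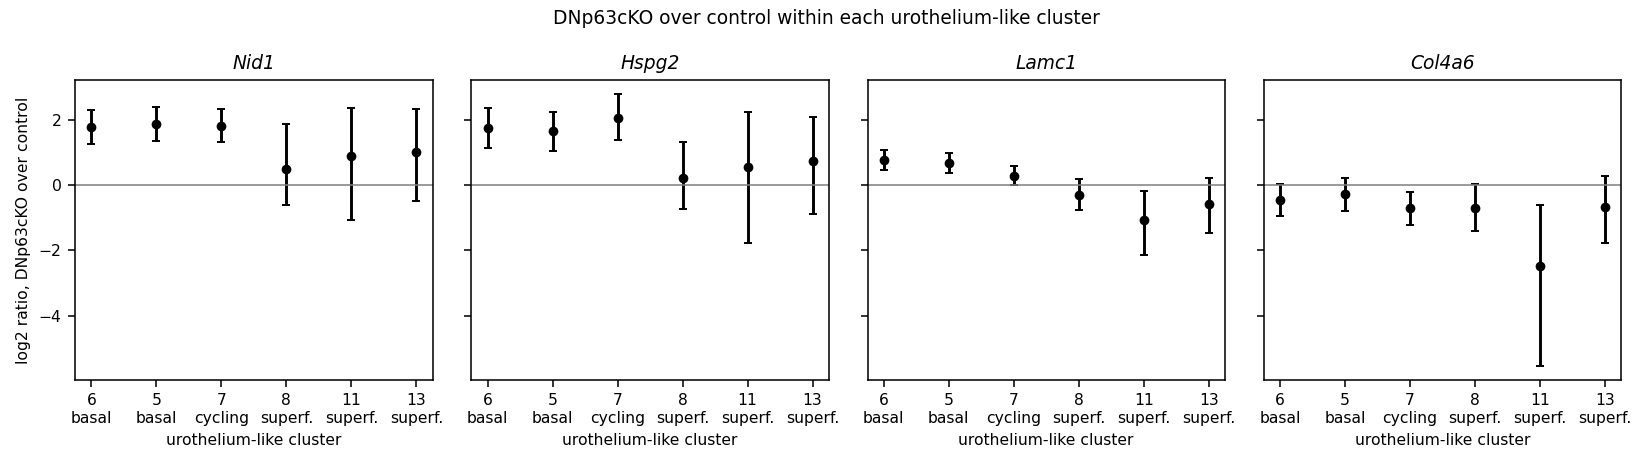
Log2 ratio of CPM, DNp63cKO over control, of Nid1, Hspg2, Lamc1 and Col4a6 within each numbered urothelium-like cluster (layer name under the number), with exact 95% conditional binomial intervals. Nid1 and Hspg2 were between 1.65 and 2.06 in clusters 5, 6 and 7, Lamc1 was above 0 in these 3 and below 0 in clusters 8, 11 and 13, and Col4a6 was below 0 in all 6.

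Lamc1 had 180.0 CPM in DNp63cKO and 160.0 CPM in control over the whole class (log2 0.17, 0.04 to 0.30), and its ratio differed by cluster. In basal-like nuclei it had 329 CPM in DNp63cKO and 205 CPM in control (0.68, 0.47 to 0.89), with 0.67 in cluster 5 and 0.78 in cluster 6. In clusters 8, 11 and 13 its ratio was -0.30, -1.08 and -0.58, with intervals that held 0 in clusters 8 and 13. The pooled ratio of Lamc1 without cluster 8 was 0.68, past 1.5-fold.

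Col4a2 in basal-like nuclei had 87.1 CPM in DNp63cKO and 45.5 CPM in control (0.94, 0.51 to 1.35), and over the whole class 0.48 (0.22 to 0.74). Its partner Col4a1 was at 0.41 (0.08 to 0.73) in basal-like nuclei and 0.27 (0.08 to 0.45) over the class. In basal-like nuclei 4 of 10 members (Col4a2, Nid1, Hspg2 and Lamc1) were past 1.5-fold higher and 0 lower, where all genes had 10.9% higher and 12.0% lower. In cycling nuclei 2 were higher and 1 lower (8.27% and 10.5%), and in superficial-like nuclei 3 and 1 (13.5% and 7.97%).

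The X-linked Col4a5 was at -0.28 (-0.38 to -0.19), with 289 CPM in DNp63cKO and 352 CPM in control, and by cluster its ratio lay between -0.30 and -0.11. Lama5 was at 0.16 (0.06 to 0.25), Lamb1 at -0.01 (-0.15 to 0.12) and Nid2 at 0.42 (-0.06 to 0.89). The intervals of Lama5, Lamb1 and Col4a5 lay within 1.5-fold and that of Nid2 did not. Over the processing alternatives Nid2 ranged from -0.70 to 0.72 and turned direction, Lamb1 ranged from -0.17 to 0.07 and Lamc1 from -0.04 to 0.68. Col4a1 ranged from 0.22 to 1.27 and Col4a2 from 0.19 to 1.23, both highest with free RNA subtracted. In control that setting took 17.5% of library-wide levels of 388 CPM for Col4a1 and 160 CPM for Col4a2. The urothelium-like control levels were 72.3 CPM and 35.1 CPM, so little of either was left and these ratios rest on small remainders.

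In the other classes most ratios were below 0. In smooth-muscle-like nuclei 0 members were past 1.5-fold higher and 1 lower, where all genes had 7.34% higher and 6.51% lower. That gene was Lamb1, with 105 CPM in DNp63cKO and 170.0 CPM in control (-0.70, -0.91 to -0.49). Col4a1 was at -0.43 (-0.50 to -0.35) and Lama5 at -0.41 (-0.59 to -0.24), and Nid1 was at -0.21 (-0.39 to -0.04) and Hspg2 at -0.07 (-0.22 to 0.08).

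In fibroblast-like nuclei 0 members were higher and 3 lower (8.9% and 7.15% of all genes). The 3 were Col4a5 with 107 CPM in DNp63cKO and 177 CPM in control (-0.73), Col4a6 with 37.9 CPM in DNp63cKO and 64.2 CPM in control (-0.76) and Lamb1 with 150.0 CPM in DNp63cKO and 242 CPM in control (-0.69). The median of the 10 was -0.46, beside 0.02 over 11611 genes. Nid2 was above 0, at 143 CPM in DNp63cKO against 118 CPM in control (0.27, -0.08 to 0.63). The uroplakin sum in fibroblast-like nuclei was 2660 CPM in DNp63cKO and 2069 CPM in control, and its part in the lower ratios was not tested.

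In endothelium-like nuclei (293 in DNp63cKO and 326 in control) 0 members were higher and 6 lower, where all genes had 11.7% higher and 12.1% lower. Lamb1 had 80.3 CPM in DNp63cKO and 187 CPM in control (-1.22, -1.86 to -0.61), Nid2 82.9 CPM in DNp63cKO and 152 CPM in control (-0.87), Col4a2 383 CPM in DNp63cKO and 678 CPM in control (-0.82) and Nid1 158 CPM in DNp63cKO and 259.8 CPM in control (-0.72). The other lower members were Col4a5 and Col4a6, the second on 9 DNp63cKO and 19 control UMIs. In nuclei with Y-linked and no Xist UMIs (38 in DNp63cKO and 25 in control) endothelial Col4a2 turned to 0.57 and Col4a1 to 0.68. The count of lower members there was 2, among only the members that reached the UMI minimum for a ratio. Of all genes, 749 reached it, against 8832 in all endothelium-like nuclei, so the counts of 2 and 6 cannot be compared. In all endothelium-like nuclei Lama5 was the member above 0, at 202 CPM in DNp63cKO against 163 CPM in control (0.31, -0.17 to 0.79).

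The uroplakin sum in endothelium-like nuclei was 3289 CPM in DNp63cKO and 2184 CPM in control, and its part in the lower ratios was not tested. After subtraction of the free RNA profile the endothelial ratio of Nid1 was -0.84 and that of Nid2 -1.01, with 5 members lower past 1.5-fold. Of all genes, 21.8% were then higher and 23.7% lower in endothelium-like nuclei. In pericyte-like nuclei 8 members had 20 or more UMIs, and 0 of them were higher and 4 lower (Nid1, Hspg2, Lama5 and Lamc1), where all genes had 17.5% higher and 16.0% lower. The intervals of all 4 held 0. The uroplakin sum there was 5145 CPM in DNp63cKO and 2041 CPM in control, the widest such gap of the 5 classes, and its part in these ratios was not tested.

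Other genes of the basement membrane were taken as 5 lists, compared in urothelium-like nuclei by the same 1.5-fold rule, with 10.6% of all genes higher and 7.38% lower. Among 8 other laminin chains 0 were higher and 0 were lower, and their median log2 ratio was -0.04. Lama4 had 25.6 CPM in DNp63cKO and 17.6 CPM in control (0.54), and Lama2 38.5 CPM in DNp63cKO and 28.0 CPM in control (0.46). Of the 5 classes both were highest in fibroblast-like nuclei of both libraries. The smooth muscle, fibroblast and endothelium marker lists were at 0.43 to 0.63, and the part of such RNA in the 2 ratios was not tested.

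Of 22 other basement membrane components 6 were higher and 1 lower (median 0.43; all genes 10.6% higher and 7.38% lower). Fbln1, a fibulin, had 41.8 CPM in DNp63cKO and 19.1 CPM in control (1.13, 0.82 to 1.44), Hmcn1, a hemicentin, 32.8 CPM in DNp63cKO and 15.9 CPM in control (1.04) and Frem2, part of the Fraser complex that ties epithelium to the underlying tissue, 151 CPM in DNp63cKO and 76.7 CPM in control (0.98, 0.82 to 1.14). Col7a1, the anchoring fibril collagen of stratified epithelia, had 7.89 CPM in DNp63cKO and 17.5 CPM in control (-1.15, -1.74 to -0.60). In smooth-muscle-like nuclei 2 of 20 measured components were higher and 5 lower, where all genes had 7.34% higher and 6.51% lower. In fibroblast-like nuclei 3 of 19 were higher and 2 lower, where all genes had 8.9% higher and 7.15% lower.

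Of 16 receptors 2 were higher and 3 lower (median 0.02; all genes 10.6% higher and 7.38% lower). Sdc1, a syndecan, had 149 CPM in DNp63cKO and 396 CPM in control (-1.40, -1.53 to -1.28), Itga6, a laminin-binding integrin chain, 241 CPM in DNp63cKO and 556 CPM in control (-1.20), Itga2, a collagen-binding integrin chain, 22.2 CPM in DNp63cKO and 44.0 CPM in control (-0.98), and Itga7, a laminin-binding chain known from muscle, 19.1 CPM in DNp63cKO and 7.79 CPM in control (1.30). Itga6 is among the genes that named the basal-like layer. Of the 5 classes Itga7 was highest in pericyte-like and Itga2 in endothelium-like nuclei of both libraries. The part of such RNA in their urothelial ratios was not tested. In smooth-muscle-like nuclei 0 of 16 receptors were higher and 7 lower (median -0.52), where all genes had 7.34% higher and 6.51% lower. In fibroblast-like nuclei 0 were higher and 5 lower (median -0.21), where all genes had 8.9% higher and 7.15% lower.

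Of 15 genes for folding, modification and secretion of collagen IV 4 were higher and 0 lower (median 0.08; all genes 10.6% higher and 7.38% lower). Plod2, a lysyl hydroxylase, had 12.0 CPM in DNp63cKO and 4.56 CPM in control (1.39, 0.76 to 2.02), P3h1, a prolyl 3-hydroxylase, 10.5 CPM in DNp63cKO and 5.79 CPM in control (0.86), and Creb3l1, a transcription factor of the secretory pathway, 48.3 CPM in DNp63cKO and 31.9 CPM in control (0.60). P4ha2, a prolyl 4-hydroxylase subunit, had 6.69 CPM in DNp63cKO and 4.45 CPM in control (0.59, -0.16 to 1.32). Of the 5 classes Plod2, P3h1, Creb3l1 and P4ha2 were each highest in fibroblast-like nuclei of both libraries. Of 13 remodelling genes 10 were measured, 2 were higher and 0 lower (median 0.40; all genes 10.6% higher and 7.38% lower): Mmp2, a gelatinase, had 21.8 CPM in DNp63cKO and 12.6 CPM in control (0.79), and Adamts1, a metalloproteinase, 46.6 CPM in DNp63cKO and 28.3 CPM in control (0.72). The inhibitor Timp3 was at 0.51 and Adamts9 at 0.43. Mmp2 and Adamts1 were highest in fibroblast-like nuclei of both libraries and Adamts9 in endothelium-like ones. Timp3 was highest in pericyte-like nuclei of DNp63cKO and in endothelium-like nuclei of control. The part of RNA from other classes in the ratios of these folding and remodelling genes was not tested.

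Over the 10 profiles of class and library, the genes most like each member by Pearson r of log2(CPM + 5) were, after the collagen pair, Fhit for Col4a5 (0.963), Dlg5 for Col4a6 (0.951), Dbn1 for Nid1 (0.95), Ttc28 for Nid2 (0.973) and Tspan18 for Hspg2 (0.968). For the laminin chains they were Ndufs4 for Lama5 (0.975), Sec62 for Lamb1 (0.891) and AI837181 for Lamc1 (0.949). Nid2 was ranked 19 in likeness to Nid1 (0.905). Each library contributes 5 profiles, which share its depth and background RNA.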

How the data were processed

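Nuclei of 2 pooled libraries were captured in microwells and their RNA sequenced, per the labels' protocols. The deposited values are raw UMI counts per gene and nucleus. The names mm10, Seurat 4.0.5, R 4.0.5, STARsolo and STAR 2.7.11a were given without roles, per the submitters' processing notes. No source used here gives the annotation, strand setting or intron counting.

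A nucleus needed at least 300 detected genes and no more than 5% mitochondrial UMIs, which 5491 in DNp63cKO and 8889 in control met. Scrublet marked 0% as doublets, so its calls were not used and the 5% with the highest doublet score per library were removed, which left 5172 DNp63cKO and 8373 control nuclei. The nuclei were clustered together with scanpy 1.11.5 (2000 variable genes, 30 components, 15 neighbours, resolution 1) without the 84 listed basement membrane genes, and the 17 clusters were named from marker lists. The rule that left liver-led clusters unnamed was added after the leading genes were seen. Itga6, Itgb4, Lamb3 and Bcam, of the 84 genes, were among the markers that named the basal-like layer. UMIs were summed per class, layer or cluster and library and divided by the group's total (CPM). Ratios needed 20 UMIs over both libraries, and a gene was called higher or lower past 1.5-fold. Intervals are exact at 95% (Poisson for levels, conditional binomial for ratios, Clopper-Pearson for shares) and cover counting error only. With 1 library per group no test was possible. The ratio code was checked on simulated counts.

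The members, gene lists and marker lists were chosen with earlier results of these data known. All 10 members are described. Of each other list, up to 4 genes with the largest absolute ratio among those with 50 or more UMIs are named. For likeness, the gene of highest correlation is named. Alternatives were other scalings, pseudocounts, UMI minimums, clusterings, doublet handling, thinning depths, clusters left out, subtraction of free RNA, and nuclei with Y-linked and no Xist UMIs. Python 3.11.15, numpy 2.4.6, scipy 1.17.1 and pandas 2.3.3 were used.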

Additional observations from a re-analysis of the deposited data

Results flagged for a closer look

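Nid1 had opposite directions in the 2 cell classes compared under the same contrast. Its log2 ratio of DNp63cKO over control was 1.46 in urothelium-like nuclei and -0.72 in endothelium-like nuclei. The difference between the classes was not tested, since each group is 1 library.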

How the results depend on the processing

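No paired analysis was possible because each group has 1 library. In urothelium-like nuclei Nid1 ranged from 0.91 to 2.23 and Hspg2 from 1.16 to 2.68 (log2) over 14 alternatives and stayed past 1.5-fold in all 14, and Col4a6 ranged from -0.89 to -0.28 and stayed past it in 12, all but the Y-linked nuclei (-0.28) and the setting without cluster 8 (-0.36). With free RNA subtracted, 4 members were higher and 2 lower in urothelium-like nuclei, 2 were lower in smooth-muscle-like and 6 in fibroblast-like nuclei. The higher urothelial ratios of Nid1, Hspg2, Col4a1 and Col4a2 in that setting rest on small remainders in control. Of all genes, 9.86% were then higher and 10.4% lower in urothelium-like nuclei, 12.3% lower in smooth-muscle-like and 17.0% lower in fibroblast-like nuclei. In nuclei with Y-linked and no Xist UMIs, 0 members were lower in urothelium-like nuclei, 1 was higher and 2 lower in smooth-muscle-like nuclei, and 1 was higher and 2 lower in endothelium-like nuclei, where Col4a2 at 0.57 and Col4a1 at 0.68 had the opposite sign on 38 DNp63cKO and 25 control nuclei. Of all genes, 12.0% were then lower in urothelium-like nuclei, and 18.1% were higher and 16.8% lower in smooth-muscle-like nuclei. In endothelium-like nuclei 20.7% were higher and 18.4% lower, of 749 genes measured. Only members that reached the UMI minimum were counted, so the 2 lower there cannot be set against the 6 lower in the main setting. Without cluster 8, 4 were higher and 0 lower in urothelium-like nuclei, with 14.0% of all genes higher and 8.76% lower. The causes were not tested. Leaving out cluster 8, cluster 4 or cluster 13 and counting the unnamed cluster as urothelium-like were chosen after seeing the data. Median-ratio scaling moved none of 91 results, but it shifted log2 ratios by only -0.02 to 0.01. A ratio counted as moved outside its main counting interval, and a count past a 1.5-fold change. Subtraction of free RNA moved 54 results and left 42 the same. The nuclei with Y-linked and no Xist UMIs moved 46, reversed 1 and left 31 the same. Mean over nuclei moved 15 and left 76, and leaving out cluster 8 moved 9 and left 3. Depth limits the small classes and clusters, and 1 library per group leaves the spread between mice unmeasured.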
